A study of Drosophila mojavensis with 14 samples.

Results

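A set of 80 transcripts gave lower signal in the lower reproductive tract of Drosophila mojavensis females after mating with males of another species (heterospecific) than after mating with males of their own species (conspecific), at each of 3 times after copulation. They were taken from 14471 transcripts that carry a GI number as their name, of 14519 on the array. The measured values chose them: perfect-match probe intensity was put on the log2 scale, quantile normalized over 14 arrays and averaged over the probes of a transcript, and the score of a transcript was the smallest of its 3 conspecific minus heterospecific differences of group means. Transcripts whose means ran in the order 15 min, 2 h, 6 h, virgin from high to low after either mating were left out (806). Of the rest, 4197 had a score above 0, and the 80 highest scores are described here. The difference between matings is therefore a description of the choice and is given with no test.

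Females of a single isofemale line of D. mojavensis were mated with D. arizonae males (heterospecific) or with D. mojavensis males (conspecific), or were kept as virgins, and every male of a species came from a single isofemale line, so the values describe these lines. Dissection followed copulation by 15 min, 2 h or 6 h. Females were 10 to 12 days old, those to be mated had 2 males to a vial, and a sample was a pool of 20 to 25 tracts. The groups were heterospecific 15 min, 2 h and 6 h, conspecific 15 min, 2 h and 6 h, and virgin, with 2 samples each that the labels call biological replicates, 1 to an array.

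D. mojavensis and D. arizonae are closely related flies that breed in rotting cactus and can still cross. The lower reproductive tract of a female fly includes the uterus or bursa, which receives the ejaculate, the seminal receptacle and spermathecae, which store sperm, and accessory glands. In Drosophila, seminal proteins that pass with the sperm act on this tract, and mating is followed by changes in its gene expression. In flies of the mojavensis group copulation is also followed by an insemination reaction, a mass that fills the uterus for some time. The files pair GI numbers with no gene names and the reference table matched 0 of them, so no roles are given to the members, and tissue markers were not analysed here. In dissected tissue, fewer cells of a type and less RNA per cell cannot be told apart.

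Of the 14 arrays, 4 stood apart. Conspecific 15 min replicate 2, conspecific 2 h replicate 1, conspecific 6 h replicate 1 and virgin replicate 2 had an upper quartile of raw intensity of 943, 1413, 1183 and 1056, and the other 10 arrays had 2015 to 2912. These 4 are called the low arrays below. No heterospecific array was among them, while each conspecific group and the virgin group held 1. The slope of log2 intensity along a transcript, per step from a probe to the next, was 0.283, 0.252, 0.123 and 0.210 on them, in the order above, and 0.112 to 0.180 on the other 10. The headers date the extraction of probe intensity from the images, called reading here, to day 1 or day 2. This date was not taken as a day of hybridization or scanning. Day 1 held heterospecific 15 min replicate 1, both heterospecific 2 h and both heterospecific 6 h arrays, and conspecific 6 h replicate 2. Day 2 held the other 8 arrays, so at 2 h mating type and day of reading cannot be told apart.

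From here on, a level is a log2 intensity after background correction (normexp, offset 50), quantile normalization and median polish over the probes of a transcript, unless the scale of the choice is named. A difference between groups is a difference of these levels.

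The members as a whole were lowest at 2 h and 6 h after heterospecific mating and highest on the low arrays. Averaged over the 80, the level was 10.26 and 10.64 on the heterospecific 15 min arrays (replicates 1 and 2), 9.81 and 9.87 at 2 h, and finally 9.90 and 9.80 at 6 h. After conspecific mating it was 10.70 and 11.42 (15 min), 11.06 and 10.51 (2 h) and then 11.14 and 10.44 (6 h). Virgin arrays were at 10.44 and 11.40. The 4 highest arrays of the 14 were the 4 low arrays, and for 78 of the 80 members the highest of the 14 arrays was 1 of these. For 68 of the 80 the lowest array was a heterospecific array of 2 h or 6 h. Virgin replicate 1, at 10.44, lay beside the conspecific 2 h and 6 h arrays that were not low. The part of the low arrays and of the day of reading in the members' differences was not tested beyond the values without them and within a day, which are given further on.

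**Figure D1:**
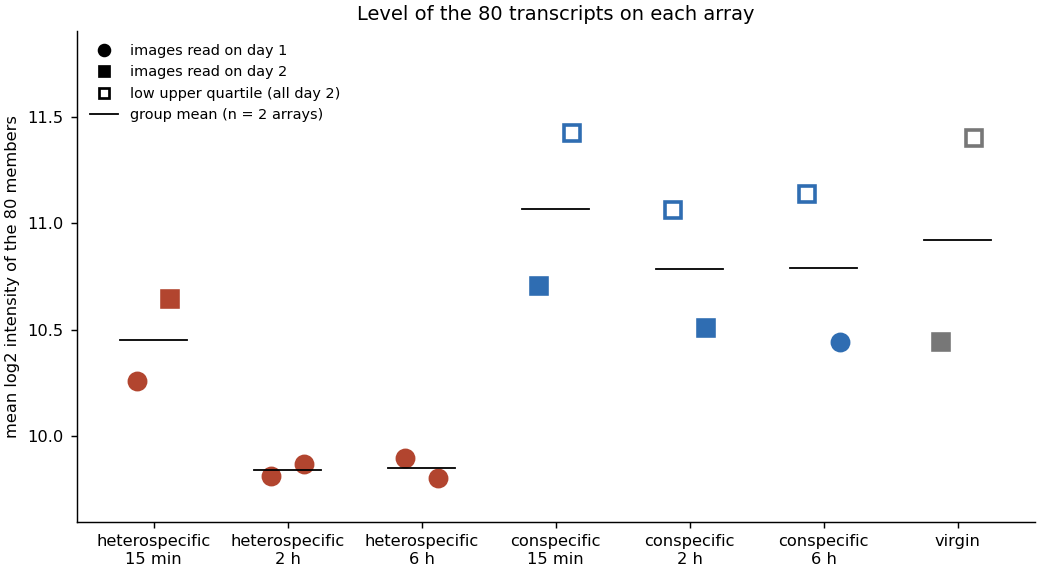
Mean log2 intensity of the 80 members on each array (y axis) by group (x axis), where each point is an array, open points are the low arrays, the symbol gives the day the image was read and the line is the mean of the 2 arrays. The 4 open points lie at 11.06 to 11.42, above the other 10 arrays, and the heterospecific 2 h and 6 h arrays lie at 9.80 to 9.90.

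**Figure D2:**
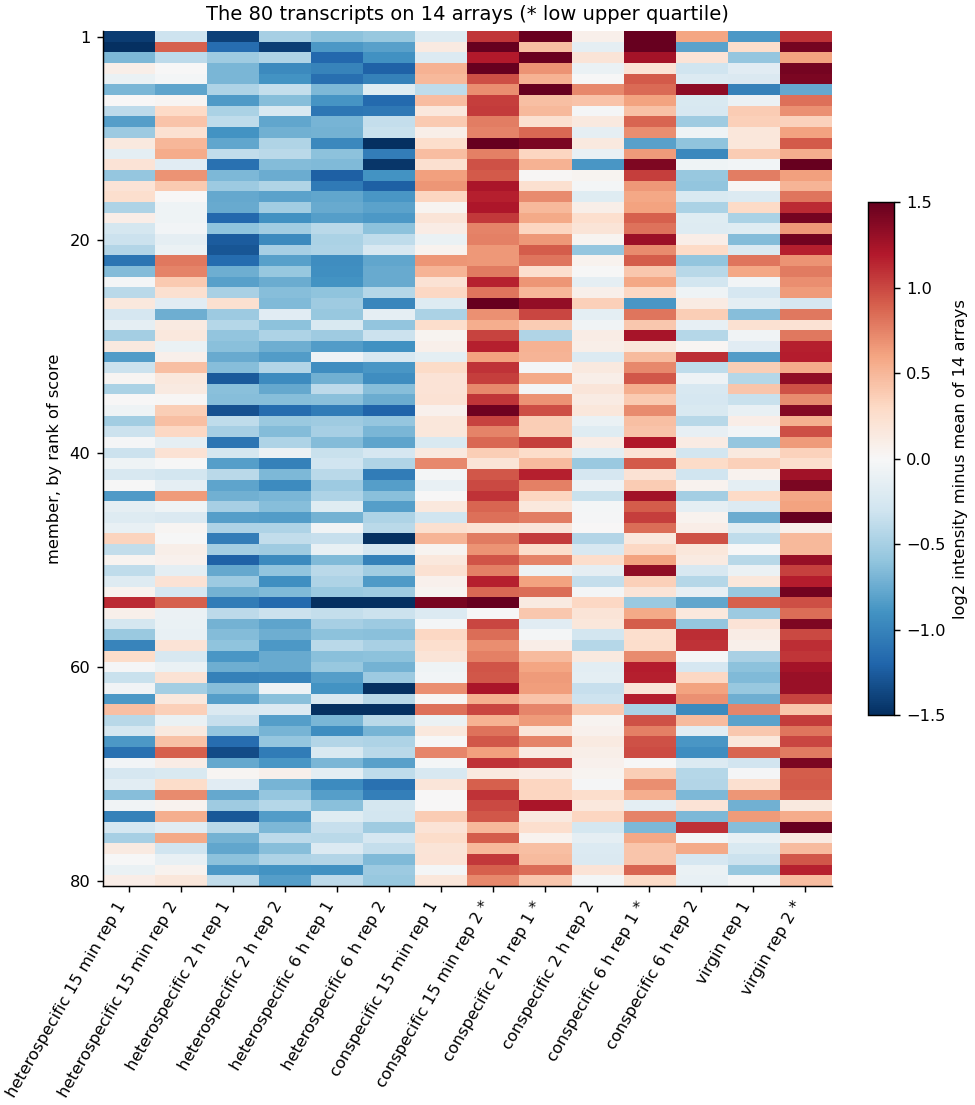
Level of each of the 80 members (rows, by rank of score) on each of the 14 arrays (columns), as log2 intensity minus the member's mean over the arrays, with colours that stop at 1.5 in either direction. The starred columns, which are the low arrays, are the reddest, and the 4 heterospecific arrays of 2 h and 6 h are the bluest.

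Among the members the highest score belonged to GI19828, at 1.23 on the scale of the choice. Its level was 9.48 and 10.59 (15 min), 9.49 and 10.40 (2 h) and then 10.28 and 10.32 (6 h) after heterospecific mating, 10.70 and 11.97, 12.37 and 10.97, and 12.45 and 11.48 at the same times after conspecific mating, and 10.04 and 11.98 in virgins. All 6 heterospecific arrays were below all 6 conspecific arrays. Averaged over the 3 times its heterospecific minus conspecific difference was -1.57 (SE 0.41), so the heterospecific signal was 0.338 of the conspecific one.

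GI20115, with a score of 0.97, had the same separation. Its heterospecific levels were 10.43 and 10.71 (15 min), 10.58 and 10.66 (2 h) and then 9.93 and 10.21 (6 h), against conspecific levels of 10.91 and 12.30, 12.60 and 11.31, and 12.35 and 11.32, and virgin levels of 10.53 and 11.71. The mean difference was -1.38 (SE 0.32). Virgin replicate 1 lay within the heterospecific range and virgin replicate 2 within the conspecific range. Only 5 of 80 members had every heterospecific array of any time below every conspecific array of any time. They were GI19828, GI20115, GI16965, GI16950 and GI11679, the last 3 named after their values were seen. The choice favours this order and its share over all transcripts was not counted, so nothing is read from the count. GI20107, also named after its values were seen, was the 1 member (1.25%) whose 15 min arrays lay on opposite sides of both virgin arrays, below after heterospecific and above after conspecific mating, against 0.792% of all transcripts. That is near the share over all transcripts, and 0 members had this order at 2 h or at 6 h.

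GI11280 (score 0.97) varied more between replicates. It was at 8.07 and 10.46 (15 min), 8.43 and 8.16 (2 h) and then 8.71 and 8.75 (6 h) after heterospecific mating, at 9.70 and 11.31, 10.01 and 9.43, and 11.32 and 8.77 after conspecific mating, and at 9.83 and 11.01 in virgins. The heterospecific 15 min arrays differed by more than the mean difference of -1.33 (SE 0.52), and the groups overlapped at 15 min.

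GI22307 (score 0.74) was the member with levels above virgin after both matings at all 3 times. It was at 8.81 and 8.69, 9.03 and 9.13, and 8.82 and 9.31, in order of time, after heterospecific mating. After conspecific mating it was at 9.10 and 10.18, 11.20 and 10.21, and 10.34 and 10.83, and in virgins at 8.48 and 8.72. Relative to virgin it stood at 0.15, 0.48 and 0.46 after heterospecific mating and at 1.05, 2.10 and 1.99 after conspecific mating, on the log2 scale. Its difference between matings averaged -1.35 (SE 0.22), and without the low arrays it was -1.08, the largest of the 80 in that setting.

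Of the other 6 members among the first 10 by score, GI12225 (0.94), GI17022 (0.78) and GI18243 (0.72) had both heterospecific arrays below both conspecific arrays at each time, with mean differences of -1.04, -1.09 and -1.05. GI13495 (0.69) and GI17827 (0.66) had that separation at 2 of the 3 times, and their mean differences were -0.81 and -0.86. GI13569 (0.67) had it at 1 time, with a mean difference of -0.75. At the other end of the list GI24780 and GI22541, ranked 79 and 80, scored 0.436 and 0.433. Just outside, GI10342 and GI19703, ranked 81 and 82, scored 0.431 and 0.430, so no gap in the scores marked the end of the list. The order rule left out 7 transcripts that scored at least as high as the last member, with GI14761 at the top and GI17134 (0.824) and GI19966 (0.814) next. In all 7 the order was met after conspecific mating.

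Over all 80 members the median heterospecific minus conspecific difference was -0.60 at 15 min, -0.93 at 2 h and -0.93 at 6 h, where the median over all 14519 transcripts lay between -0.01 and 0.01. On the scale of the choice the 15 min difference was the smallest of the 3, and so set the score, in 62 members, the 2 h difference in 9 and the 6 h difference in 9. For 66 members the difference was larger at 6 h than at 15 min. Both heterospecific arrays were below both conspecific arrays in 37 members at 15 min, 74 at 2 h and 68 at 6 h, and at all 3 times in 31. Among all transcripts these shares were 15.2%, 24.5%, 23.1% and 2.97%. The choice fixed these counts, and nothing is read from them.

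The size of the difference changed with the low arrays, in a setting added after the values were seen. Without them the median was -0.22 at 15 min, -0.64 at 2 h and -0.55 at 6 h, and averaged over the 3 times it was -0.47, against -0.81 with all arrays. The mean difference stayed below 0 in 79 of the 80 members, all but GI15758, and it was under 0.5 of its size in 19 members. Differences were below 0 in 70 members at 15 min, 79 at 2 h and 73 at 6 h, against 51.6%, 46.8% and 49.4% of all transcripts. Differences below 0 at all 3 times were left in 63 members, against 14% of all transcripts in the same setting. Every mated array that was left had entered the choice, which favours differences below 0, so nothing is read from these counts. Each conspecific group then held 1 array. GI15007, GI17251, GI10040 and GI24152, of which the last 3 were named after their values were seen, moved little or grew, with -0.98, -0.93, -0.83 and -0.74 without the low arrays against -1.01, -0.92, -0.85 and -0.58 with them. Of the 5 members with the highest level GI12969 lost the largest share of its difference, with -0.13 without the low arrays against -0.52 with them.

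**Figure D3:**
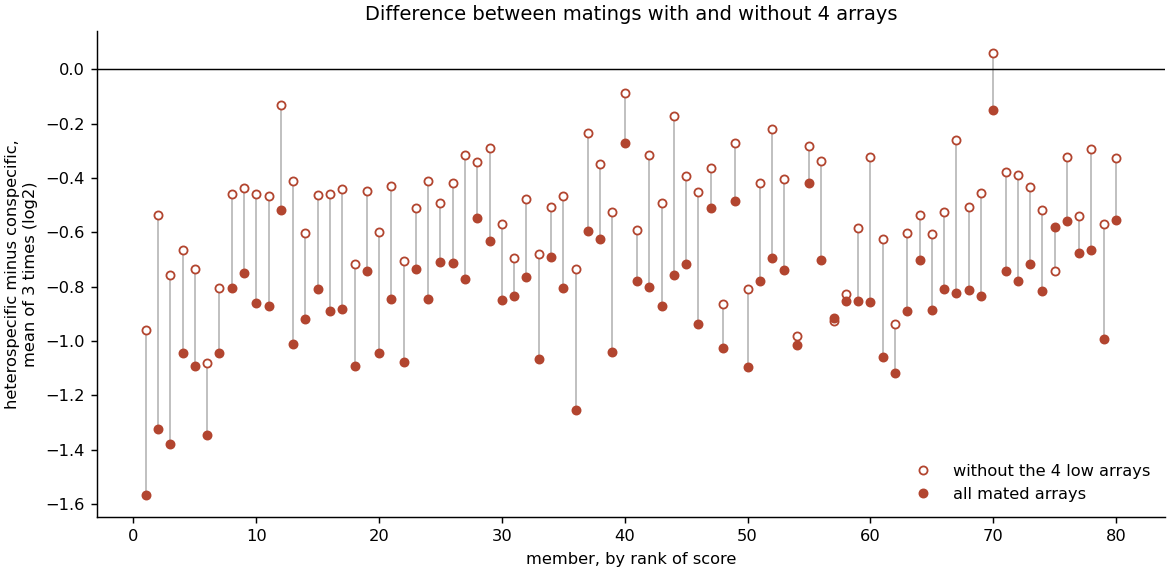
Heterospecific minus conspecific log2 difference, averaged over 15 min, 2 h and 6 h (y axis), for each of the 80 members by rank of score (x axis), from all mated arrays (filled) and without the low arrays (open), with a line joining the values of a member. The open points lie nearer to 0 for 78 of the 80 members, and 1 lies above 0.

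Within a day of reading, a comparison was possible at 15 min and at 6 h. On day 2 the only heterospecific 15 min array, replicate 2, was below the mean of the conspecific 15 min arrays in 74 members, with a median difference of -0.44, where 53% of all transcripts were lower. Against the conspecific 15 min array of that day that was not low, replicate 1, its median difference was -0.02, and 43 of the 80 members were lower (53.8%), where 53% of all transcripts were. At 6 h on day 1, where no low array lay, the heterospecific arrays were below conspecific replicate 2 in 73 members with a median of -0.55, and 49.4% of all transcripts were lower. These 6 h values are those given above without the low arrays, since the same arrays were compared. Every array in the comparisons within a day had entered the choice, which favours differences below 0. Nothing is therefore read from the counts of 74 and 73. At 2 h no day held arrays of both matings. With the day as a block in the fit of all arrays, the median was -0.29 at 15 min, -0.43 at 2 h, -0.66 at 6 h and -0.51 over the 3 times, and 9, 22, 3 and 16 of the 80 members were above 0. Only heterospecific 15 min and conspecific 6 h held arrays of both days, so they alone set the day effect. The members' median of day 2 minus day 1 was 0.23 in the former and 0.79 in the latter, where the day 2 array was low. Day and low array are thus mixed in that effect, and the 2 h value rests on it.

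The choice was also repeated on single replicates and read in arrays it had not used, on the scale of the choice. From the replicate 1 arrays alone the rule chose a list of 80 that shared 32 members with the one described here. In the replicate 2 arrays its median heterospecific minus conspecific difference was -0.25 at 15 min, -0.52 at 2 h and -0.18 at 6 h, and 54 of 80 were lower at all 3 times, against 24.3% of GI-numbered transcripts. From the replicate 2 arrays the list shared 24 members, and in the replicate 1 arrays its medians were -0.02, -1.35 and -1.23, with 45 of 80 lower at all 3 times, against 24.4%. At 15 min 45 of this second list were lower in replicate 1, which at 50.1% of GI-numbered transcripts is near the background, whereas 80 were lower at 2 h and 77 at 6 h. Replicate 1 held low arrays at 2 h and 6 h and replicate 2 at 15 min and in virgins, and in replicate 1 every heterospecific array was read on day 1 and every conspecific one on day 2, so their part in these counts was not tested.

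Relative to virgins, members lay lower after heterospecific mating and near the virgin level after conspecific mating. The median heterospecific minus virgin difference was -0.49 at 15 min, -1.12 at 2 h and -1.04 at 6 h, and the median conspecific minus virgin difference was 0.12, -0.15 and -0.15. These values share the mated arrays that chose the members and share the virgin arrays, so they are given with no test. At 2 h and at 6 h the heterospecific level was below virgin in 79 members, against 50% and 51% of all transcripts, and the conspecific level in 61 and 51 members, against 49.3% and 49.4%. The heterospecific level was below virgin at all 3 times in 72 members and above it at all 3 in GI22307. The conspecific level was above virgin at all 3 times in 12 members and below it at all 3 in 18. Shares over all transcripts were not counted for these orders at all 3 times, so nothing is read from the counts. Without the low arrays the heterospecific medians were 0.10 at 15 min, -0.57 at 2 h and -0.58 at 6 h, and the conspecific ones 0.27, 0.00 and -0.01, against a single virgin array. The 15 min heterospecific median was thus below 0 with all arrays and above 0 without the low arrays.

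The score did not use the virgin arrays, which entered only the order rule, and the members differed widely between the 2 of them, a comparison made after the values were seen. The low array, replicate 2, was above replicate 1 in 71 of the 80 members (88.8%), against 48.9% of all transcripts. The median difference of replicate 2 minus replicate 1 was 0.90 in the members and -0.01 over all transcripts. It exceeded 0.5 in 54 members, against 11% of all transcripts, and 1 in 38 members, where 3.07% of all transcripts did. In the conspecific groups, which the choice did use, the low array was above the other array in 76 members at 15 min, 73 at 2 h and 69 at 6 h, against 54.4%, 53.6% and 46.8% of all transcripts. In all 4 groups with a low array it was the higher one in 55 members, against 17.2% of all transcripts. On the heterospecific 15 min arrays, neither of them low, replicate 2 was above replicate 1 in 58 members, against 46.5%. Among members described above or below, GI19828 differed by 1.94 between the virgin arrays, GI12225 by 1.61 and GI17022 by 1.63, while GI22307 differed by 0.24, GI15007 by 0.07 and GI14885 by -0.31.

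**Figure D4:**
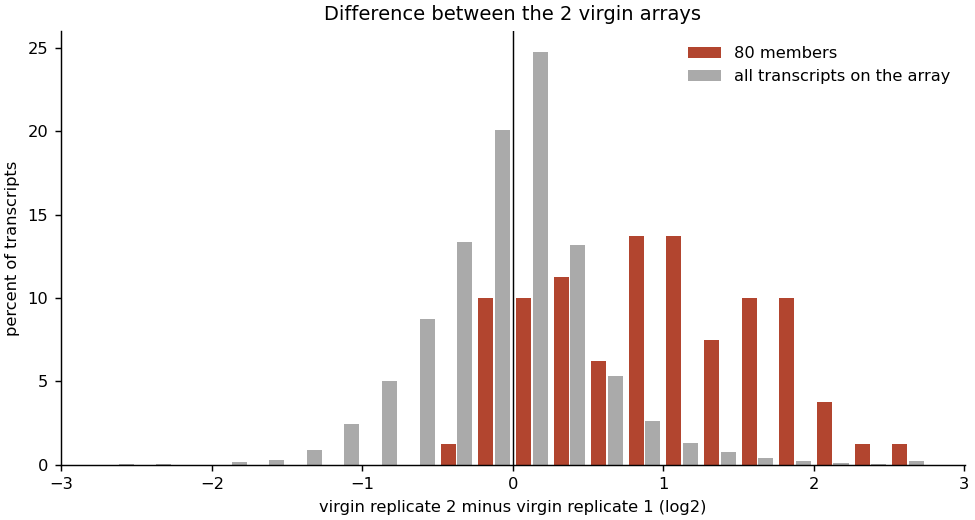
Share of transcripts (y axis, percent) by the log2 difference of virgin replicate 2, a low array, minus virgin replicate 1 (x axis, bins of 0.25), for the 80 members and for all 14519 transcripts. The members centre on 0.90 and the transcripts of the whole array on -0.01.

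Mated females as a whole, the mean of the 6 mated groups, were compared with virgins. The reason was that noise in the score stays out of this contrast where groups are equal in size and spread. Each conspecific group held a low array and no heterospecific group did, so equal spread cannot be taken as given. An array that stands apart in a group does enter both, and the order rule used the virgin level and left out transcripts with mated levels above it, so the counts are of a list from which some higher transcripts had been taken. No member passed the test (0 of 80, limma adjusted over all transcripts, where 5 of 14519 or 0.0344% passed). An unadjusted p under 0.05 was reached by 13 members, 12 of them lower and 1 higher in mated females, against 7.35% of all transcripts, 2.83% lower and 4.52% higher. GI15007 had the lowest adjusted p of the members, 0.0958, with a log2 difference of -1.09 (SE 0.17). The median over the members was -0.51, with 76 of 80 below 0, against 48.9% of all transcripts, whose median was 0.01. Above 0 were 4 members, against 51.1% of all transcripts. The members' median was -0.99 without virgin replicate 1 and 0.02 without virgin replicate 2, and without the 4 low arrays it was -0.13 with 48 of 80 below 0.

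Between 15 min and 6 h, over both matings, 4 members fell and 0 rose in the test over all transcripts (5% of the members), where 2.27% of all transcripts were called, 1.28% lower and 0.985% higher. In a fit of only the 9010 transcripts above the background limit on both arrays of a group, 79 members were kept. The 4 called were 5.06% of these, near the 4.47% of all transcripts in that fit. An unadjusted p under 0.05 was reached by 20 members that were lower and 1 that was higher, against 9.06% and 8.46% of all transcripts. Noise in the score stays out of this contrast too only where both matings have equal spread, which cannot be taken as given here. The shares of falling members are therefore not free of the choice. In addition, the order rule used the fall from 15 min to 6 h and left out transcripts that fell and stayed above virgin. The median change over the members was -0.43 and over all transcripts -0.01, and 69 of the 80 were below 0, where 53% of all transcripts were, and 11 were above 0, where 47% were. Heterospecific 6 h arrays were all read on day 1 and conspecific 15 min arrays all on day 2. With the day as a block the median was -0.14 and 2 members were called, GI15007 and GI14885, where 0.551% of all transcripts were. Without the low arrays the median was -0.43 and 15 members were called, 14 of them lower, where 5.68% of all transcripts were called. On day 1 alone, where the change sets the heterospecific 6 h arrays against the single heterospecific 15 min array of that day, the median was -0.38. On day 2 alone, where it sets the single conspecific 6 h array of that day, a low one, against the conspecific 15 min arrays, the median was 0.08. With no transcript left out for its order, the 80 highest scores shared 73 transcripts with the members, and 6 of them were called between 15 min and 6 h, all lower, with a median of -0.44. In mated minus virgin 1 of that list was called, higher in mated females, and the median was -0.46 with 70 of 80 below 0.

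GI15007 fell by 2.53 on the log2 scale between 15 min and 6 h (SE 0.16, limma adjusted p = 8.25e-05), a 5.77-fold lower signal at 6 h. After heterospecific mating it was at 12.94 and 12.71 (15 min), 10.77 and 10.66 (2 h) and then 10.30 and 9.57 (6 h). After conspecific mating it was at 13.25 and 13.39, 11.95 and 12.13, and 11.27 and 11.04, and in virgins at 12.72 and 12.79. At each time both heterospecific arrays were below both conspecific ones, and both matings had their 6 h arrays below every 15 min array. The low arrays moved it little, with a change of -2.55 without them.

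GI14885, the member with the highest level, fell by 1.78 (SE 0.14, limma adjusted p = 0.000411). Its heterospecific levels were 14.54 and 14.44, 13.87 and 13.88, and 12.56 and 12.54 in order of time, against conspecific levels of 14.91 and 15.09, 14.82 and 14.48, and 13.61 and 13.14, and virgin levels of 14.82 and 14.51. The 2 h arrays were near the 15 min arrays after conspecific mating and between the 15 min and 6 h arrays after heterospecific mating. With the day as a block the changes of GI15007 and GI14885 were -2.53 and -1.69, with limma adjusted p of 0.00208 and 0.00583.

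GI11732 fell by 1.64 (SE 0.35, limma adjusted p = 0.0408) and GI14826 fell by 1.18 (SE 0.25, limma adjusted p = 0.0399). GI11732 was at 10.05 and 10.40, 9.13 and 9.45, and 8.93 and 8.29 after heterospecific mating, at 10.17 and 11.56, 11.32 and 10.05, and 9.09 and 9.30 after conspecific mating, and at 10.08 and 10.82 in virgins. GI14826 was at 13.14 and 13.34, 12.39 and 12.49, and 11.88 and 11.71, then at 13.60 and 14.16, 13.18 and 12.91, and 13.59 and 12.35, and in virgins at 12.95 and 13.45. On the conspecific 6 h arrays of GI14826 the low array was the higher, above the virgin arrays, and the other was below them. Leaving out a single array lost the call of GI11732 for 9 of the 14 arrays and that of GI14826 for 8, with adjusted p up to 0.205 and 0.189. With the day as a block their adjusted p was 0.121 and 0.142.

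Most members shared a feature that the rule did not use, looked at after the values were seen: the position number of their last probe was low. The position of the last probe in the transcript, as the array files give it and a lower bound of the transcript's length, had a median of 195.5 in the members (quartiles 133.8 and 303.8, range 36 to 1222), against 931 over all transcripts (quartiles 458 and 1644). It was at or before 300 in 58 members (72.5%), where 15% of all transcripts were. GI19828, GI20115 and GI16965 had their last probe at 65, 79 and 36. The members with the latest last probe were GI20107 (1222, named after its values were seen), GI12969 (1164) and GI13569 (1002). The 80 GI-numbered transcripts that the same rule gives with the sign turned, higher after heterospecific mating, had a median of 1187, and 9 of them lay at or before 300.

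**Figure D5:**
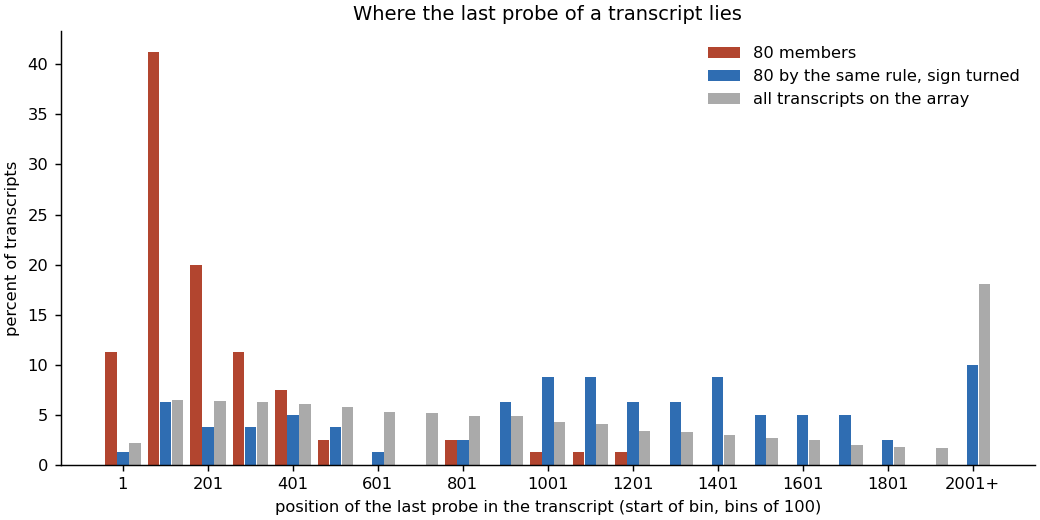
Share of transcripts (y axis, percent) by the position of the last probe in the transcript (x axis, bins of 100), for the 80 members, for the 80 transcripts chosen by the same rule with the sign turned and for all 14519 transcripts. Of the members 41.2% lie in the bin from 101 to 200, where 6.48% of all transcripts do.

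Transcripts that were not members differed between the virgin arrays and between matings with the same feature. With the last probe at 1 to 150, 151 to 300, 301 to 600 and beyond 600, the median of virgin replicate 2 minus replicate 1 among them was 0.14, 0.17, 0.14 and -0.11. Their median heterospecific minus conspecific difference over the 3 times was -0.13, -0.14, -0.09 and 0.06 in the same bins, and -0.05, -0.06, -0.04 and 0.03 without the low arrays. The members' share of each bin was 3.66%, 2.12%, 0.645% and 0.0515%. Among the members themselves the median difference between the virgin arrays was 1.14, 1.39 and 0.49 in the first 3 bins and -0.00 in the last, which held 5 members. In the list with the sign turned virgin replicate 2 was above replicate 1 in 3 of 80, with a median of -0.75.

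Most members lay above background, but they varied between replicates more than most transcripts did. The SE of their difference between matings at a single time ran from 0.20 (GI14885) to 0.90 (GI11280). Its median over all transcripts was 0.22, and most members were above that. Their mean level over the arrays ran from 7.25 to 14.09 with a median of 10.36, against 8.20 over all transcripts. Above the background limit on at least 1 array of every group were 76 members, 3 were in some groups only, and GI11200 was in none, and nothing is read from its differences. Of the 5 members with the highest level, GI14885, GI12969, GI18243, GI11842 and GI22541, the means were 14.09, 13.79, 13.44, 13.39 and 13.28. GI11200 and GI15758, at 7.25 and 7.63, were the lowest. No probe of a member was saturated on any array.

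The mean of a member's probes chose it, so a high share of lower probes was fixed by the choice and is given as a description. Of 396 probes, 372 (93.9%) were lower after heterospecific mating at all 3 times, and in 64 members every probe was. GI15758 and GI23675, the second named after its values were seen, were exceptions, with 2 and 1 of 5 probes lower at all 3 times. In GI23675 the score on the scale of the choice was 0.48, but its difference at 15 min after median polish was 0.10, of the opposite sign. For GI15758 the mean difference over the 3 times was -0.15 (SE 0.18), within its error.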

How the data were processed

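Gene expression was measured on 1-colour arrays in 14 samples, 2 for each of 7 groups. RNA was amplified and labelled with Cy3, per the labels' protocols. Probe intensity was extracted from the images with NimbleScan 2.4.67, per the file headers, and the deposited intensity values were not normalized. RMA appears in the submitters' processing notes. The value table they deposited nevertheless matched the raw perfect-match intensity at every probe of the 14 arrays, so normalization started from raw values. Mismatch values were all 0.

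Intensity was background corrected (normexp, offset 50), quantile normalized, put on the log2 scale and summarised by median polish. Limma 3.58.1 in R 4.3.3 was fitted over 14519 transcripts and all arrays with a mean for each group, and p-values were adjusted by Benjamini-Hochberg with a threshold of 0.05. The fit was tested on simulated data. A transcript was above background where its level passed the array's background limit, set at 2 SDs. The members and lists were chosen with earlier results of these data known. Named members are the 10 highest scores, those at the end of the list, called members and those with the 5 highest and 2 lowest levels. Replicates were taken from the labels. The number of arrays limits the precision. Alternatives covered background correction, normalization, summary, filters, blocks, covariates and left-out arrays.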

Additional observations from a re-analysis of the deposited data

Results flagged for a closer look

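GI20107 had a heterospecific minus conspecific difference of -0.411 on the log2 scale at 15 min. Its level was 10.35 and 10.62 after heterospecific mating, 10.75 and 11.03 after conspecific mating, and 10.71 on both virgin arrays. Both heterospecific arrays lay below and both conspecific arrays above both virgin arrays, which was so in 1 of 80 members (1.25%) and 0.792% of all transcripts. These shares are near each other, and 0 members had this order at 2 h or at 6 h, so nothing is read from it. The higher heterospecific array and the lower conspecific array, at 10.62 and 10.75, lay close to the virgin arrays. The difference was not tested, since it entered the choice of the members.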

How the results depend on the processing

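The 4 members called between 15 min and 6 h became 2 with median scaling, with the compared groups alone, with the day of reading as a block and with each array's probe slope in the fit, 15 without the low arrays, 21 with the low arrays as a block, 11 on day 1 alone (heterospecific, a single 15 min array) and 0 on day 2 alone (conspecific, a single 6 h array, each assumed to vary like the other groups), where 0 of all transcripts were called. Leaving out 1 array gave 2 to 6. The median of that change was 0.077 on day 2 alone (conspecific, a single 6 h array) and -0.63 to -0.24 with 1 array left out. Mated minus virgin called 0 to 1 members with 1 array left out and 1 with no transcript left out for its order, and its median was 0.0021 on day 2 alone and -0.99 to 0.018 with 1 array left out, the last without virgin replicate 2. Replicate numbers did not pair the samples (correlations of replicate differences -0.63 to 0.512 over 21 pairs of groups, 8 over 0.1). With a replicate block 2 members were called between 15 min and 6 h, where 1.24% of all transcripts were. In fits with the day as a block, the day effect came from the heterospecific 15 min and conspecific 6 h groups alone. The median heterospecific minus conspecific difference at 15 min, 2 h and 6 h was -0.29, -0.43 and -0.66 with the day as a block and -0.51 over the 3 times, with 9, 22, 3 and 16 members above 0. With 1 array left out it was -0.98 to -0.22 at 15 min, -1.22 to -0.64 at 2 h, -1.33 to -0.55 at 6 h and -0.96 to -0.69 over the 3 times. The rule chose 45 of the 80 again with median scaling, 46 with the median of the probes, 30 without the low arrays, 22 with the day as a block and 24 to 77 with 1 array, or all arrays of 1 replicate number, left out. With the day as a block the mean difference was above 0 in 16 of the 80 members, of which those named in the text were at 0.32 in GI11280, 0.14 in GI13569, 0.25 in GI12969, 0.067 in GI11200, which was not above background in any group, and 0.13 in GI15758, and GI15758 was at 0.059 without the low arrays and 0.12 with them as a block. The causes were not tested. The settings with the low arrays as a block or with no transcript left out for its order, and those without the low arrays for the difference between matings, were chosen after seeing the data.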
